A study of Mus musculus with 2 samples.

Results

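The 10 chemokine genes Ccl20, Ccl27a, Ccl7, Ccl2, Cxcl1, Cxcl9, Cxcl12, Cxcl14, Cxcl16 and Cx3cl1 were followed in peeled mouse epidermis, on 1 array of a control genotype and 1 array of a genotype that lacks IκBζ in keratinocytes. They are 10 of 18206 genes that could be named on the array and were read by 13 of 26662 named probes. The members were taken by name: every probe whose RefSeq accession belongs to 1 of these genes was used. Of the 10 genes, 8 were well above background on both arrays, Ccl7 was so on the control array alone and Cxcl1 on the knockout array alone.

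The control mice carried Nfkbiz alleles flanked by loxP sites on both chromosomes (Nfkbiz flox/flox). The knockout mice carried the same floxed alleles with K5-cre, in which the keratin 5 promoter drives the recombinase, so that only cells in which this promoter is or was active lose the gene. Epidermis also holds Langerhans cells, T cells and melanocytes, which are not keratinocytes. Both groups were sampled in the steady state, and the epidermis was lifted from the dermis after incubation with ammonium thiocyanate. Age, sex, strain background and how many mice each RNA sample came from are not stated in the labels or files used here. With 1 array per genotype there is no replicate check, no difference was tested, and the number of arrays limits the precision.

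Chemokines are small secreted proteins that attract leukocytes through receptors coupled to G proteins, and they are classed as CC, CXC or CX3C by the spacing of their first cysteines. Keratinocytes make several of them all the time and others only after cytokines such as IL-17A, IL-36, TNF or interferon-γ. IκBζ, encoded by Nfkbiz, is a nuclear IκB protein that works with NF-κB subunits on the promoters of a set of inducible genes, and in keratinocytes it acts downstream of IL-17A and IL-36. NF-κB binds κB sites, and the gamma-activated sequence and the interferon-stimulated response element are promoter elements through which interferons act.

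Of the members with an entry in the RefSeq promoter table, Ccl20, Cxcl9 and Cxcl12 were at least 2-fold apart between the arrays. Cxcl1 was well above background on the knockout array alone. The upstream sequences of these 4 members are shown. Each is the 250 bases before the start site of the transcript, 5′ to 3′ on the strand of the gene, on build GRCm38.p6, and capitals mark any match to the motifs searched. Ccl20 lies at chr1:83116516-83116765, plus strand, Cxcl1 at chr5:90890995-90891244, plus strand, Cxcl9 at chr5:92328080-92328329, minus strand and Cxcl12 at chr6:117168285-117168534, plus strand.
Ccl20: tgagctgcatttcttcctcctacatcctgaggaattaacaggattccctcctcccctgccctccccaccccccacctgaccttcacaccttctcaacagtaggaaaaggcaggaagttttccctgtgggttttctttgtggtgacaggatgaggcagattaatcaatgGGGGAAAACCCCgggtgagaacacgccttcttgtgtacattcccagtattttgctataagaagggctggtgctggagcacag
Cxcl1: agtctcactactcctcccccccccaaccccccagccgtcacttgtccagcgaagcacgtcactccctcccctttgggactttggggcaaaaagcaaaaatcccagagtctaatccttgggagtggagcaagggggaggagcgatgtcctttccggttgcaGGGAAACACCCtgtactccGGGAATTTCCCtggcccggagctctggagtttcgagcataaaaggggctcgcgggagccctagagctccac
Cxcl9: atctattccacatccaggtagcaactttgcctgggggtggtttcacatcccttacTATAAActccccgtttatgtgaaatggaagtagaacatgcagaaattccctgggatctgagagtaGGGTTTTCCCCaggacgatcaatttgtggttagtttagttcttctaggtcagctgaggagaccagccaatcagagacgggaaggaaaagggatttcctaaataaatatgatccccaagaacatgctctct
Cxcl12: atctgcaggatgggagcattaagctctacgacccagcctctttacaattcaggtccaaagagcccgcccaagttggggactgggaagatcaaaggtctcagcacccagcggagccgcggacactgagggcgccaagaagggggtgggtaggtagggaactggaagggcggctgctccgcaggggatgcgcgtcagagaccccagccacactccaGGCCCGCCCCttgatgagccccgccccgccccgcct

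Of the 10 genes, 7 have an entry in that table, with 9 start sites in all because Ccl27a has 3. Ccl2, Ccl7 and Cxcl16 have none. The κB consensus was found upstream of Ccl20 and Cxcl1 and of no other member with an entry, against 3.9% of all 32851 windows of this length. The Ccl20 match, GGAAAACCCC, lay 80 to 71 bases before the start site and reads as the consensus on the opposite strand. The Cxcl1 matches, GGGAATTTCC and its overlapping reverse neighbour GGAATTTCCC, lay between 71 and 61 bases before the start. A relaxed pattern, GGG and CC separated by any 5 bases, which contains the consensus and was chosen after the sequences were seen, also matched upstream of Cxcl9 (GGGTTTTCCC and, overlapping it, GGTTTTCCCC on the opposite strand), Cxcl12 and the first and second starts of Ccl27a, but 45.8% of all windows hold it. The gamma-activated sequence TTCNNNGAA and the interferon-stimulated response element core, a pair of GAAA boxes separated by any 2 bases, were found upstream of Cxcl14 alone, against 7.02% and 2.98% of windows. The AP-1 site TGANTCA was found at the third start of Ccl27a (6.75% of windows). The letters of the TATA box, TATAAA, were found 195 to 190 bases before the start of Cxcl9 and 6 to 1 bases before that of Cx3cl1 (12.4%). Both strands were searched. A match is a stretch of letters, not a measured binding site, and these arrays measured no binding.

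**Figure D1:**
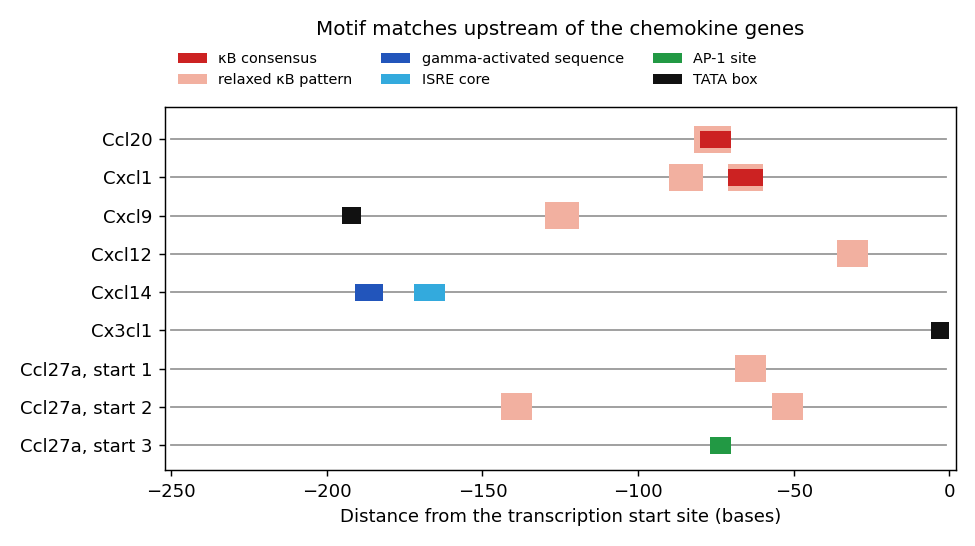
Motif matches in the 250 bases upstream of 9 start sites of 7 chemokine genes. The horizontal axis is the distance from the transcription start site in bases, each line is 1 start site and each block is 1 match. The κB consensus appears upstream of Ccl20 and Cxcl1, at similar distances from the start.

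Signals are the scanner software's processed intensities, in arbitrary units. Values after ± are that software's error for a signal, or the standard error of a log2 difference computed here from those signal errors. They stand for technical error within these arrays but not differences between mice. For bright signals the software's error is a nearly fixed share of the signal (809 of 8090 for Ccl27a, 165 of 1650 for Cx3cl1). Many differences therefore carry the same standard error of 0.20, which is a model value and not a spread measured over repeats. Differences are knockout minus control on the log2 scale, after each array was divided by its own 75th percentile of signal (205 for control, 239 for knockout). Signals are printed before this division. Probes differ in how well they bind, so signals of different probes say nothing of which gene has more RNA. Calling a marker the brightest, or summing signals over a marker list, describes signal only.

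**Figure D2:**
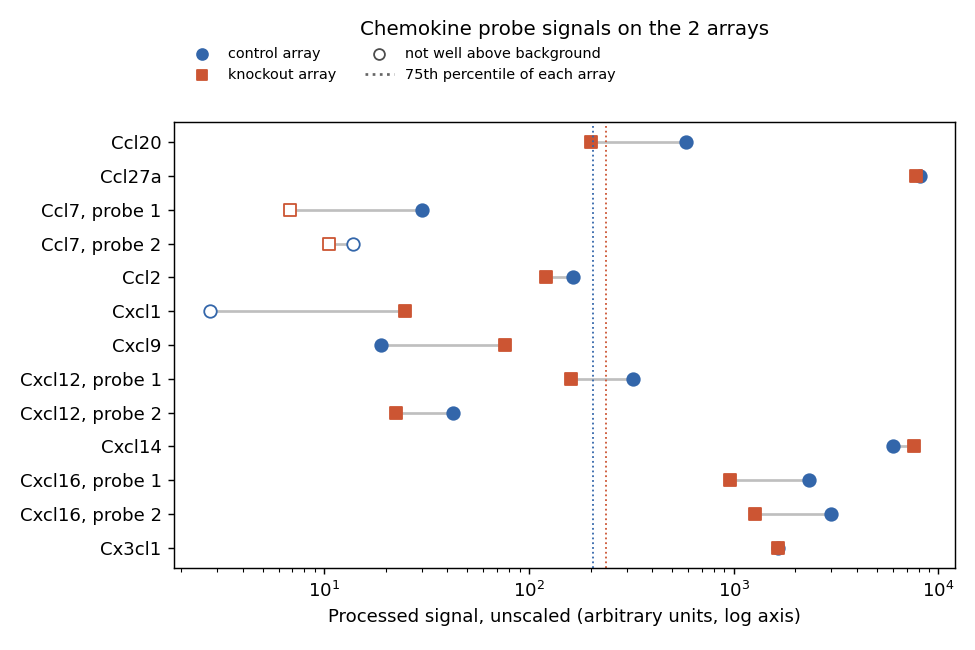
Processed signal of each of the 13 chemokine probes on the control and knockout arrays, on a log axis in arbitrary units. Filled points are well above background, open points are not, and dotted lines mark the 75th percentile of each array (205 and 239). The probes of Ccl20, Cxcl12 and Cxcl16 sit to the left on the knockout array, those of Cxcl9 and Cxcl1 to the right, and those of Ccl27a and Cx3cl1 nearly coincide.

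Among the 8 members measured on both arrays, Ccl20, Cxcl16 and Cxcl12 were at least 2-fold lower on the knockout array and Cxcl9 was at least 2-fold higher. The same fold was passed downward by 4.4% and upward by 3.02% (7.43% either way) of the 12397 named genes measured on both arrays. The median difference of the 8 was -0.47, beside -0.04 over all those genes, of which the central 90% lay between -0.95 and 0.82. Scaling each array to its median in place of its 75th percentile adds 0.32 to every difference. It moves the counts over all genes from 375 higher and 546 lower to 953 higher and 295 lower, and quantile normalization gives 459 and 458, so the balance of directions over all genes depends on the scaling.

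Ccl20, the ligand of CCR6 on IL-17-producing T cells and on some dendritic cells, had the largest difference among the members that were lower and measured on both arrays. It gave 588 ± 59.0 in control and 202 ± 20.5 in knockout epidermis, a log2 difference of -1.76 ± 0.21 (3.39-fold lower). The gap between the arrays is several times that error, but the error does not cover the spread between mice or between hybridizations. Ccl20 was read by 1 probe, at 1 spot on each array. Over 7 ways of making the values (the main one, 3 other scalings, normexp background correction, the mean over probes and the authors' deposited table) it ranged from -1.78 to -1.33 and stayed past 2-fold. The 7 are not independent. For a gene with 1 probe the mean over probes repeats the main value, and the authors' table nearly does (-1.77 for Ccl20). The κB consensus shown above lies in its upstream window. The probe of the receptor gene Ccr6 gave 13.9 and 12.4 and was not flagged as well above background on either array.

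Cxcl16 and Cx3cl1 are the chemokines made as membrane proteins, with the chemokine domain on a mucin-like stalk that proteases can cut to release it. Cxcl16, the ligand of CXCR6, was read by 2 probes. The first gave 2330 ± 233 in control and 955 ± 95.6 in knockout epidermis (-1.51 ± 0.20), and the other gave 2970 ± 297 and 1270 ± 128 (-1.45 ± 0.20, 2.73-fold lower). The probes differed from each other by less than their errors. Over the 7 settings the difference ranged from -1.48 to -1.13 and stayed past 2-fold. Cx3cl1, also called fractalkine and the ligand of CX3CR1, gave 1650 ± 165 and 1640 ± 164, a difference of -0.23 ± 0.20 after scaling that turned to 0.09 under median scaling. Of the membrane-bound pair, Cxcl16 was thus lower and the signal of Cx3cl1 nearly the same, with no test of the contrast between them. Of the proteases that release both, Adam17 gave 793 and 973 (0.07 ± 0.20), and its other probe differed by 0.12. Adam10 could not be named on the array.

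Cxcl12, which holds cells that carry CXCR4 near its source and is also bound by the scavenging receptor ACKR3, was lower at both of its probes. The brighter one, annotated to transcript NM_001012477, gave 322 ± 32.3 and 160 ± 16.2 (-1.23 ± 0.21, 2.35-fold lower). The other, annotated to NM_021704, gave 42.8 ± 5.89 and 22.4 ± 4.16 (-1.16 ± 0.33). Both probes showed about the same difference, and whether each reads only its own transcript form was not examined. Median scaling (-0.91) and normexp (-0.95) brought the Cxcl12 difference under 2-fold. Its receptor Cxcr4 was near the limit of detection, at 16.8 and 19.4 (-0.01 ± 0.38), while Ackr3 gave 871 and 2640, a difference of 1.38 ± 0.20 (2.60-fold higher), and stayed past 2-fold in all 7 settings, from 1.37 to 1.70. Hspg2, the gene of the heparan sulfate proteoglycan perlecan of basement membranes, was 2.59-fold lower (-1.37 ± 0.21).

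Dermal fibroblasts and endothelium are known sources of Cxcl12, so their markers are given beside it. Of 8 fibroblast markers, 6 were measured on both arrays and none was 2-fold apart, with differences from -0.73 to 0.00, a median of -0.23 (0.09 for the same list under median scaling) and a summed scaled signal of 14.5 in control and 12.7 in knockout epidermis. Col1a1, the brightest on the control array, gave 968 and 1115. Pdgfra was not well above background on either array. Of 6 endothelial markers, Vwf was the only one measured on both, at 236 and 52.0 (-2.40 ± 0.22), Emcn was at least 5.36-fold lower, and Pecam1, Cdh5 and Kdr were not well above background on either array. Tek was above background only in knockout epidermis and at least 1.30-fold higher. The part of these cells in the Cxcl12 difference was not tested, and in RNA from whole epidermis fewer cells of a type and less RNA per cell cannot be told apart.

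Ccl2 and Ccl7 are neighbouring genes that encode monocyte attractants acting on CCR2, and Ccl7 also binds CCR1 and CCR3. The Ccl2 probe is printed at 10 places on each array, which shows the technical spread directly. The lowest, median and highest Ccl2 signals were 154, 163 and 176 in control epidermis. In knockout epidermis they were 115, 120.5 and 131. The ranges did not overlap, and the signal was lower on the knockout array at 10 of 10 places. After scaling, the difference was -0.67 with an SD of 0.07 over the places and a range from -0.80 to -0.59 (1.59-fold lower). The places share the same labelled RNA, so this spread is that of printing and hybridization and not of mice. How often other probes printed at 10 places separate in this way was not examined. The difference of -0.67 lay inside the central range given above for all named genes measured on both arrays (-0.95 to 0.82). Ccl2 was lower in all 7 settings, from -0.68 to -0.35, and past 2-fold in none.

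**Figure D3:**
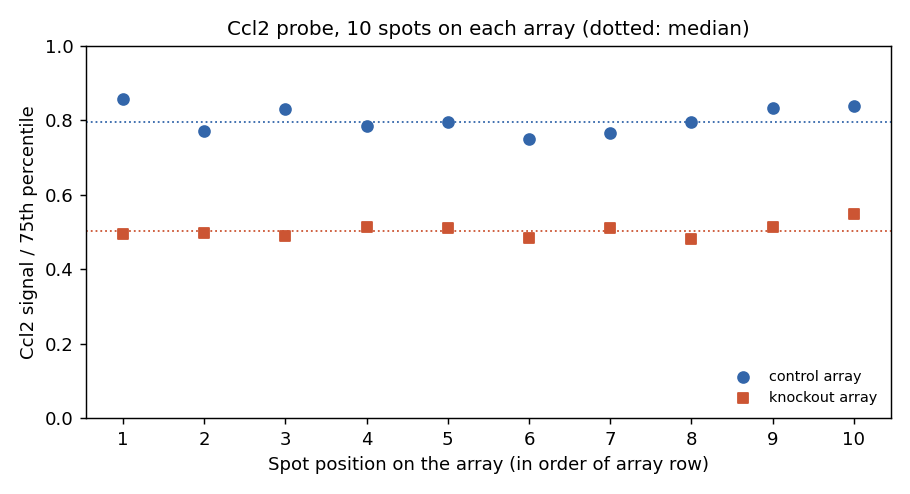
Ccl2 signal divided by the 75th percentile of the array, at the 10 places where its probe is printed, on the control and knockout arrays. Dotted lines are medians, and the lowest control spot (0.75) lies above the highest knockout spot (0.55). The spots of an array share the same labelled RNA. How often other probes printed at 10 places separate in this way was not examined.

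Ccl7 gave 29.9 ± 4.51 in control and 6.79 ± 3.18 in knockout epidermis at its brighter probe, where only the control signal was well above background. Set against the lowest signal that was well above background on the knockout array, 12.1, Ccl7 was at least 2.88-fold lower, and from at least 2.28-fold to at least 2.32-fold under median scaling, quantile normalization and loess. Its other probe gave 13.9 and 10.6, well above background on neither array, and so adds no value. A bound of at least 2-fold lower was reached by 37.6% of the 471 genes that were above background only in control epidermis. The control signal of Ccl7 is near the limit of detection, and normexp gave -0.70. The receptor gene Ccr2 was not well above background on either array (10.4 and 9.87), Ccr1 was so on the knockout array alone (24.0 and 39.4, at least 1.41-fold higher) and Ccr3 differed by -0.60 ± 0.35.

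Monocyte and macrophage markers did not move together beside this pair. Of 8 such genes, 5 were measured on both arrays, with a median of -0.19 (range -1.12 to 0.53) and a summed scaled signal of 35.0 and 26.4. Ly6c2, at 6280 and 4930 (-0.57 ± 0.20), makes up most of that sum, which was 4.32 and 5.79 without it. Csf1r and Adgre1, which encode the receptor for macrophage colony-stimulating factor and F4/80, were among the 4 brightest on the control array and differed by 0.53 ± 0.20 and 0.48 ± 0.20. C1qa, chosen after its value was seen, was the one member past 2-fold (-1.12 ± 0.31, and under 2-fold in 4 of 7 settings), and Lyz2 was not well above background on either array. The part of these cells in the Ccl2 and Ccl7 values was not tested.

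Cxcl9, which attracts T cells through CXCR3 and is induced by interferon-γ, was the one member measured on both arrays that was at least 2-fold higher. It gave 18.9 ± 3.70 in control and 76.1 ± 8.18 in knockout epidermis, a difference of 1.79 ± 0.32 (3.45-fold higher). The control signal is close to the lowest one detected there as well above background (12.7), and the size of the difference is sensitive to background: it was 2.11 under median scaling and 0.61 under normexp with an offset of 50, which pulls dim signals together. The direction was the same in all 7 settings. Cxcr3 differed by less than its error, at 18.8 and 20.3 (-0.11 ± 0.35). Of 9 T-cell markers, 8 were measured on both arrays, with a median of 0.66 and a summed scaled signal of 17.0 and 18.3. Thy1 gave 2110 and 2050 at its main probe and 83.8 and 41.6 (-1.23) at its other one, and without it the summed scaled signal was 6.67 and 9.77. Among the 4 brightest on the control array, Cd3d gave 530 and 634 (0.04 ± 0.20) and Cd3g gave 431 and 771 (0.62 ± 0.20). Neither of these was 2-fold apart in any setting. Cd69, Itgae and Klrd1, the first pair chosen after their values were seen, were at least 2-fold higher, though not under normexp. That fold was passed upward by 3.02% of all named genes measured on both arrays. The part of T cells in the Cxcl9 difference was not tested.

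Other genes that interferon-γ induces were also higher on the knockout array. Of 10 listed genes, 6 were measured on both arrays, 4 of them at least 2-fold higher and none lower, with a median of 2.17. Irf1, a transcription factor of the interferon response, gave 618 and 6110 (3.08 ± 0.20, 8.48-fold), and its other probe differed by 3.23. The GTPase genes Gbp2, Igtp and Irgm1 were 4.57-fold, 4.61-fold and 4.41-fold higher. Irf1 and these 3 stayed past 2-fold in all 7 settings. Iigp1, Gbp3 and Ciita were above background only in knockout epidermis, with bounds of at least 11.5-fold, 1.86-fold and 1.43-fold higher. Cxcl10, the closest relative of Cxcl9, gave 138 and 301 (0.90 ± 0.21, under 2-fold), and Socs1 differed by 0.39 ± 0.21. Ifng itself was well above background on the knockout array alone, at 14.3 and 29.8 (at least 1.79-fold higher), and its receptor genes Ifngr1 and Ifngr2 differed by -0.47 and -0.04.

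Cxcl1, a neutrophil attractant that acts on CXCR2, was at background on the control array and just above it on the knockout array. Its signals were 2.76 ± 2.75 and 24.9 ± 3.51. The negative control spots had a median of 3.0 and a 95th percentile of 4.31 in control epidermis, against 2.8 and 3.79 in knockout epidermis, so the control signal of Cxcl1 lay within their range and the knockout signal above it. Against the lowest signal well above background on the control array, Cxcl1 was at least 1.68-fold higher, and from at least 2.10-fold to at least 2.17-fold under median scaling, quantile normalization and loess. Normexp, which pulls dim signals together, gave 0.35 on the log2 scale. A bound of at least 2-fold higher was reached by 16.7% of the 575 genes that were above background only in knockout epidermis. Among the members with an upstream entry, the κB consensus was found for Ccl20, which was lower on the knockout array, and for Cxcl1. The part of this motif in either value was not tested.

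The related neutrophil attractants Cxcl2, Cxcl3, Cxcl5 and Ppbp were not well above background on either array, and neither was Cxcr2 (13.2 and 13.0). Of 8 neutrophil markers, Mpo, Camp, Ltf, Retnlg and Csf3r were not well above background on either array. The remaining measured ones, S100a8 and S100a9, are also made by keratinocytes and differed by 1.22 ± 0.22 and -0.44 ± 0.20. Their summed processed signal was 984 and 966. The part of neutrophils in the Cxcl1 value was not tested.

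Ccl27a and Cxcl14 are chemokines that normal epidermis makes without stimulation. Ccl27a, which guides skin-homing T cells through CCR10, gave 8090 ± 809 and 7780 ± 778, a difference of -0.28 ± 0.20 that was 0.04 under median scaling. Ccr10 was not well above background on either array. Cxcl14 gave 5980 ± 598 and 7560 ± 756 (0.12 ± 0.20, and 0.44 under median scaling). Neither was 2-fold apart in any setting. Of 6 keratinocyte markers, all measured, Krt10, Krt5, Krt14 and Dsp gave the highest signals and differed by -0.16, -0.16, -0.24 and -0.07, values that turned above 0 under median scaling. The list ranged from -0.98 to -0.07, with a median of -0.16 and a summed scaled signal of 1172 and 1046. Its lowest value was that of Itga6, an integrin gene of basal keratinocytes chosen after its value was seen, at 2770 and 1640 (-0.66 under median scaling). A gene under 2-fold here is not shown to be equal between genotypes, since 2 arrays cannot bound the spread between mice.

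**Figure D4:**
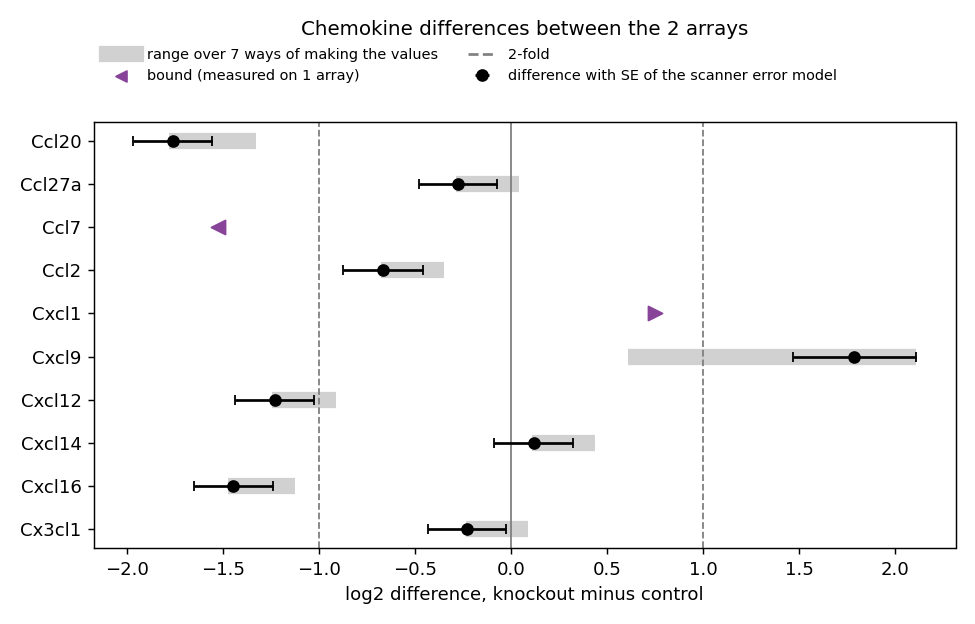
Log2 difference, knockout minus control, for each of the 10 chemokine genes. Points are measured differences with the standard error of the scanner error model, grey bars the range over 7 ways of making the values, triangles bounds for genes measured on 1 array, and dashed lines 2-fold. Ccl20, Cxcl16 and Cxcl12 lie below -1 and Cxcl9 above 1, while the grey bars of Cxcl12 and Cxcl9 cross the 2-fold line.

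The rest of the chemokine family was listed too. Of 28 other chemokine genes, 26 could be named on the array, 10 were measured on both arrays and 14 on neither. Among the 10, 3 were at least 2-fold higher and 1 was at least 2-fold lower, beside 3.02% and 4.4% of all named genes measured on both arrays. The median was 0.26. It was 0.58 under median scaling, 0.06 under normexp and -0.20 with no filter on background. Ccl8, a monocyte attractant, gave 30.5 and 86.9 (1.29 ± 0.27). Ccl6, a myeloid CC chemokine, gave 199 and 479 (1.05 ± 0.21). Ccl25, the ligand of CCR9, gave 72.0 and 174 (1.05 ± 0.21), but its other probe differed by 0.24. Xcl1, the T-cell and NK-cell chemokine that binds XCR1, gave 325 and 185 (-1.03 ± 0.21), and was under 2-fold with median scaling (-0.71). Under normexp none of these 4 was past 2-fold. Ccl19, a ligand of CCR7 chosen after its values were seen, differed by 0.47 at the probe used and by 1.30 at its other one.

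Among 23 chemokine receptor genes, 11 were measured on both arrays, 8 on neither, and the median was 0.10. Ackr3 was the only one at least 2-fold higher and none measured on both was at least 2-fold lower. The lowest of those measured on both was Xcr1, the receptor of Xcl1, at 56.3 and 36.5 (-0.85 ± 0.24). Cx3cr1 was measured on the control array alone, at 23.5 and 8.88, and was at least 2.26-fold lower, or from at least 1.77-fold to at least 1.81-fold under median scaling, quantile normalization and loess. Its other probe was not well above background on either array. Cxcr6, the receptor of Cxcl16, gave 119 and 149 (0.10 ± 0.21). The decoy receptor Ackr2, which takes up inflammatory CC chemokines, gave 141 and 260 (0.66 ± 0.21), and Ackr1 was not well above background on either array.

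**Figure D5:**
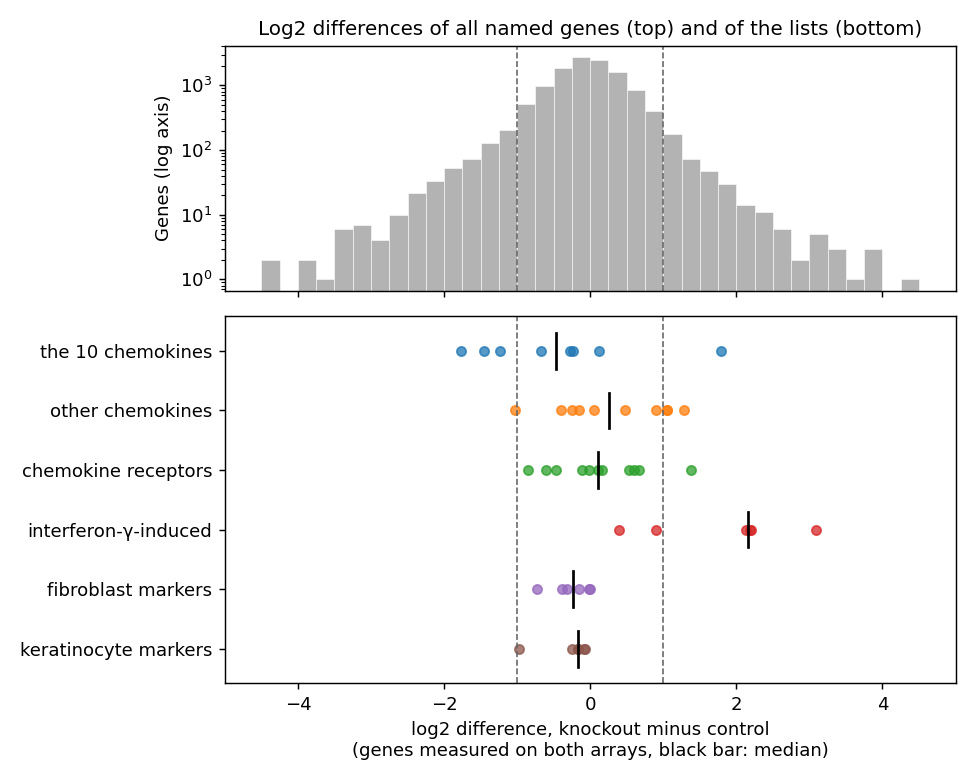
Log2 differences, knockout minus control. The top panel counts all 12397 named genes measured on both arrays (log axis), and the bottom panel shows each measured gene of 6 lists with the list's median as a black bar and 2-fold as dashed lines. The interferon-γ-induced genes lie to the right (median 2.17), and the 10 chemokines spread to both sides (median -0.47 over the 8 measured).

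Of 18 genes for cytokines that induce keratinocyte chemokines and for their receptors, 11 were measured on both arrays, with a median of -0.36. Tnf was the one past 2-fold, at 52.2 and 227 (1.90 ± 0.22, 3.72-fold higher), and stayed so in all 7 settings. Il17a and Il17f were not well above background on either array, Il22 was so on the knockout array alone (8.98 and 14.3, with no bound in the main scaling and at least 1.21-fold to 1.25-fold higher under the other scalings), and the receptor genes Il17ra, Il17rc and Il1rl2 differed by -0.36, -0.03 and -0.45. Il36a, Il36b and Il36g could not be named on the array. Of 11 genes that process or display chemokines, 7 were measured on both arrays (median -0.16), with Mmp9 2.15-fold higher (0.62 on the log2 scale under normexp), Hspg2 lower as given above, and Ctsg, measured on the control array alone, at least 1.72-fold lower.

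Nfkbiz gave 3100 and 1760 (-1.04 ± 0.20), 2.05-fold lower, and was past 2-fold in 4 of 7 settings, with the smallest difference under median scaling (-0.72). Whether its probe lies in the deleted part is not stated in the labels or files used here, so this value does not check the deletion itself. Both arrays were on 1 slide, scanned on the same day, and no probe was saturated. Of 6 measured Langerhans cell markers, 1 was at least 2-fold higher (Cd207, chosen after its value was seen). The list had a median of 0.40 and summed scaled signals of 99.3 and 111. Mfge8, Cd74, Epcam and H2-Aa, the brightest on the control array, differed by -0.14, 0.76, -0.38 and 0.68. Without Mfge8 the sums were 37.3 and 54.8. At least 2-fold lower were 3 of 3 measured melanocyte genes (Dct, Tyrp1 and Pmel, sums 8.42 and 1.95) and 3 of 3 red blood cell genes (Hbb-bt, Hba-a1 and Alas2, 89.3 and 8.81). So were 3 of 4 skeletal muscle genes (Acta1, Myl1 and Tnnt3, 3.71 and 1.10), while Mylpf gave 176 and 200 (-0.04). Of 5 measured hair follicle genes, Plet1, Lhx2 and, chosen after its value was seen, Cd34 were at least 2-fold lower. The sums of that list were 363 and 221, and Plet1 (26300 and 3520) made up most of the change. Krt15, the brightest, gave 45600 and 48200 (-0.14). Sox9 differed by -0.94 at the probe used, and by -1.16 and -2.48 at its others. Lgr5, the remaining gene of that list, was measured on the control array alone (48.3 and 12.4) and was at least 4.54-fold lower. Whether these shifts bear on the chemokine values was not tested.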

How the data were processed

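Each array was hybridized with Cy3-labelled RNA from peeled epidermis, 1 array per genotype. Per the file headers, the scanner images were read by Agilent's Feature Extraction software (10.7.3.1) on a design annotated on mm9, and the deposited intensities were background-subtracted and detrended within each array by that software. The authors also deposited log2 values centred over the 2 arrays for each probe. Their difference correlated with that of the scanner files at r = 1.00 across 41134 probes, with a median offset of -0.01, which settles scale and direction, and the column medians were 0.14 and -0.14.

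Spots marked as outliers were left out, log2 signals of a probe's spots were averaged, and the 75th percentile of all non-control spots of each array was subtracted. A probe counted as measured if flagged as well above background and not as saturated, which held for 56.3% of probes on each array. A RefSeq table of GRCm38.p6 named 26662 probes by accession and 14472 had no name. A gene was represented by its brightest probe. Genes measured on 1 array were given as bounds against the higher of the dim signal and the lowest signal well above background. With 1 array per group no p-value was computed. Alternatives used limma 3.58.1 in R 4.3.3, with normexp at an offset of 50 on median spot signals without non-uniform spots. Motifs were searched in the upstream 250 bases. The other steps ran in Python 3.11.15 with pandas 2.3.3, numpy 2.4.6 and matplotlib 3.10.9, and the calling code was tested on simulated data.

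The members and gene lists were chosen with earlier results of these data known. Named genes were the 10 members, list genes at least 2-fold apart, receptors of members, Adam17, Nfkbiz and up to 4 of the brightest markers per cell type. Protein sequences of the members were not used here, and 2 genes of the lists are not reported here and were left out of their counts.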

Additional observations from a re-analysis of the deposited data

How the results depend on the processing

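No paired analysis was possible because there is a single array per genotype, which also leaves no replicate to leave out. The relaxed κB pattern was chosen after seeing the data. All 8 members measured on both arrays kept their direction in all 7 ways of making the values, except Ccl27a and Cx3cl1, which turned above 0 under median scaling. Of the 7, the authors' table nearly repeats the main values, and so does the mean over probes for genes with 1 probe. The count of members at least 2-fold lower (3) was 1 at 3-fold and 2 to 4 under the other settings, and the count higher (1) was 0 under normexp and 2 when a signal above background on 1 array was enough or with no filter on background. The count of all named genes at least 2-fold apart (921) was 413 under normexp, 2892 at 1.5-fold, 293 at 3-fold, 1391 when 1 array above background was enough and 2089 with no filter. None of the 13 probe positions looked at (the first for Ccl2) lay within 3 rows and columns of a non-uniform spot, and at most 1 neighbouring spot had a like 4-fold difference. Cxcl1, Ccl7 and Cxcl9 are limited by signal over background.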
